A study of Papio anubis with 25 samples.

Results

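The cytosolic ribosomal protein genes of the olive baboon (Papio anubis) are described here across 5 tissues. Members were taken by symbol: RPL or RPS followed by a number, with an optional A or X, together with RPLP0, RPLP1, RPLP2 and RPSA. This rule found 69 of the 21287 genes measured, 26 of the small ribosomal subunit and 43 of the large. Of 79 standard symbols of the family, 8 were not among the genes and were not analysed here, RPS6 and RPL41 among them. The study sequenced RNA from thin sections of flash-frozen tissue of 5 baboons, giving 1 library per animal for the parotid, submandibular and sublingual glands (left side), the pancreas and the liver, or 25 libraries. Baboon 5 was male and the other 4 were female. No treatment and no genetic change was named for any animal, and no age was given. Its stated comparisons are each salivary gland with the pancreas and the pancreas with the liver, within the same animals.

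Ribosomal proteins assemble with ribosomal RNA into the small subunit, which reads the messenger RNA, and the large subunit, which joins amino acids. Most are needed in equal numbers per ribosome. Their messengers begin with a run of pyrimidines, the terminal oligopyrimidine (TOP) motif, through which growth signals regulate their translation together. Salivary glands, exocrine pancreas and liver all make secreted proteins in large amounts, and a few secretory messengers can fill much of their messenger RNA. Expression was given as TPM, a measure of transcript abundance that is corrected for transcript length and has the same sum in each library, so that levels of different genes can be compared, and a higher level of a few very high genes lowers the value of every other gene. Read depth is unknown, so errors are standard deviations (SD) over animals. In bulk tissue, fewer cells of a type and less RNA per cell cannot be told apart.

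In some gland libraries a gland marker was low and markers of other cells were high. The water channel gene AQP5, a marker of salivary secretory cells, reached no more than 4.52 TPM in any pancreas or liver library, and 4 gland libraries lay at or under that level: the parotid libraries of baboons 2 and 5 and the sublingual libraries of baboons 2 and 4. In the first of these the fat cell genes FABP4 and ADIPOQ were at 16426 and 591 TPM, and in the next the B and T cell genes CD79A and CD3E were at 338 and 278 TPM. Skeletal muscle genes were high in the sublingual library of baboon 2, with ACTA1 at 33485 TPM and CKM at 12703 TPM, and in that of baboon 4 the squamous epithelium gene KRT13 was at 12518 TPM. AQP5 was at 5.4 TPM in the submandibular library of baboon 2, where the red cell gene HBB was at 5996 TPM and FABP4 at 2432 TPM, and FABP4 was at 5704 TPM in the submandibular library of baboon 5. Summed over 5 fat cell genes, the level was 21274 TPM in parotid of baboon 2, 6860 and 2775 TPM in submandibular gland of baboons 5 and 2, and at most 396 TPM in the rest. Over 4 squamous epithelium genes it was 108702 and 47405 TPM in sublingual gland of baboons 1 and 4 and at most 714 TPM otherwise, and over 5 skeletal muscle genes at most 916 TPM outside the library with ACTA1. Over 5 salivary genes, AQP5 among them, the parotid sum was 1538 and 3496 TPM in baboons 2 and 5. It was 1049, 1571 and 1108 TPM in baboons 1, 3 and 4, so in parotid this sum did not follow AQP5. The sum also reached 2836 TPM in pancreas and 3016 TPM in liver, above every parotid library but that of baboon 5. It therefore does not set parotid apart from these organs and cannot serve as a check on AQP5 there. In the sublingual libraries of baboons 2 and 4 it was 576 and 3715 TPM, the lowest of that gland. In the submandibular library of baboon 2, just above the AQP5 limit, it was 1152 TPM, against 15073 to 23749 TPM in the rest of that gland. The label of low AQP5 rests on that gene alone. Pancreas and liver bore their own markers: 5 acinar cell genes summed to 63652 to 126438 TPM in pancreas and at most 1808 TPM elsewhere, and 3 hepatocyte genes to 37626 to 62282 TPM in liver and at most 885 TPM elsewhere. The part of these other cells in the ribosomal protein values was not tested, and results that rest on the 4 libraries are given with and without them.

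Together the 69 genes made up between 1.72% and 11.57% of a library's TPM. In the parotid gland their share was 2.23%, 9.80%, 2.71%, 1.72% and 11.57% in baboons 1 to 5. In the submandibular gland it was 2.20%, 11.35%, 2.37%, 2.27% and 4.6%. In both glands the values fell into a low range near 2% and a few libraries far above it, and the high ones include both parotid libraries with low AQP5.

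The sublingual libraries held 9.03%, 3.43%, 7.07%, 3.14% and 9.40% in the same order, and here the low-AQP5 libraries of baboons 2 and 4 were the lowest. The pancreas held 5.59%, 5.99%, 5.98%, 5.99% and 3.97%, and the liver 3.56%, 3.97%, 4.49%, 3.96% and 3.51%. The gland values spread on both sides of the pancreas, while 4 pancreas libraries lay above all liver libraries and that of baboon 5 lay within the liver range. Ordered by mean, the tissues ran from sublingual gland (6.41% ± 2.99, SD, n = 5) through parotid (5.60% ± 4.69), pancreas (5.50% ± 0.88) and submandibular gland (4.56% ± 3.93) to liver (3.90% ± 0.39). All neighbours in this order differed by less than the spread of the gland libraries. Without the low-AQP5 libraries the parotid mean was 2.22% and the sublingual mean 8.50%, and without baboon 2 the submandibular mean was 2.86%.

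The share of the 10 highest genes of each library moved against the ribosomal protein share. In the parotid gland the 10 highest genes took 83.2%, 18%, 66.2%, 87.7% and 24.4% of the TPM in baboons 1 to 5, and in the submandibular gland 82.6%, 16.2%, 75.6%, 83.2% and 57.9%. Within a tissue, the library with the higher share in its 10 highest genes had the lower ribosomal protein share in 9 of 10 pairs of libraries in parotid, submandibular gland, pancreas and liver alike. In the sublingual gland, where the 10 highest genes took 23.4% to 43.5%, that was so in 5 of 10 pairs. Over the 5 tissues it held in 41 of 50 pairs. Both shares are parts of the same total, so arithmetic alone ties them, and pairs of libraries are not independent replicates.

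**Figure D1:**
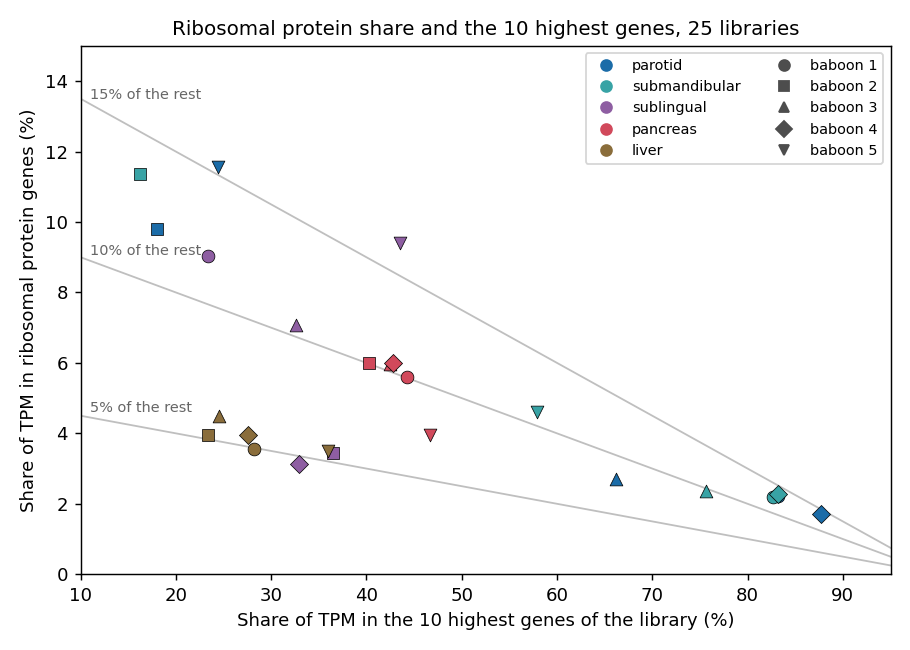
Share of TPM in the 69 ribosomal protein genes (vertical axis, %) against the share of the 10 highest genes (horizontal axis, %) for each of the 25 libraries, coloured by tissue with 1 symbol per baboon. Grey lines mark ribosomal protein shares of 5, 10 and 15% of the remaining TPM, and the parotid and submandibular libraries run along these lines from the upper left, near 11%, to the lower right, near 2%.

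No ribosomal protein gene was itself among the 10 highest of any library. The closest was RPS20, of the small subunit, which ranked 11 in the parotid library of baboon 5. The highest member was RPL13A or RPS20 in 22 of the 25 libraries. The exceptions were sublingual: RPLP1 led in baboon 2, RPL39 in baboon 4 and RPS29 in baboon 5.

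Outside the 10 highest genes, the ribosomal protein share of the parotid and submandibular glands was far more even. Of the TPM that remained, the members took 13.2%, 11.9%, 8.01%, 13.9% and 15.3% in parotid and 12.6%, 13.5%, 9.71%, 13.5% and 10.9% in submandibular gland, in baboons 1 to 5. The range of almost 7-fold in the parotid share of the whole library thereby shrank to less than 2-fold. The sublingual gland stayed uneven, with 11.8%, 5.40%, 10.5%, 4.68% and 16.6%, and its 2 low values were the low-AQP5 libraries. Without the low-AQP5 libraries the mean was 13.0% in sublingual gland, against 9.80% with them, and 11.7% in parotid, against 12.5%.

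The pancreas took 10.04%, 10.02%, 10.4%, 10.5% and 7.44% on the same measure, and the liver 4.97%, 5.18%, 5.95%, 5.47% and 5.47%. Every pancreas library lay above every liver library, with means of 9.67% ± 1.26 and 5.41% ± 0.37 (SD, n = 5 each). The share of TPM in messengers of the mitochondrial genome was 16.3% to 33.5% in liver and 5.59% to 9.89% in pancreas. In the sublingual libraries of baboons 1 to 5 it was 5.90%, 30.4%, 22.1%, 23.5% and 5.45%, high in both low-AQP5 libraries and in that of baboon 3. Its part in the ribosomal protein shares was not tested. Parotid (12.5% ± 2.78) and submandibular gland (12.1% ± 1.68) lay higher on average and overlapped the pancreas. The order of pancreas and glands depended on how many genes were set aside. With the 50 highest left out the pancreas mean was 20.3%, above parotid (11.8%), submandibular (12.8%) and sublingual gland (11.7%), and the liver was again lowest at 8.41%. Members among the genes set aside were left out of the share as well. The highest member ranked 11 to 31 in parotid, 18 to 35 in submandibular gland and 42 to 51 in pancreas. In sublingual gland it ranked 19 to 74 and in liver 44 to 79, so these means do not rank the tissues on equal terms. A library with a higher share in its 10 highest genes had the lower share of the remainder in 25 of 50 pairs.

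**Figure D2:**
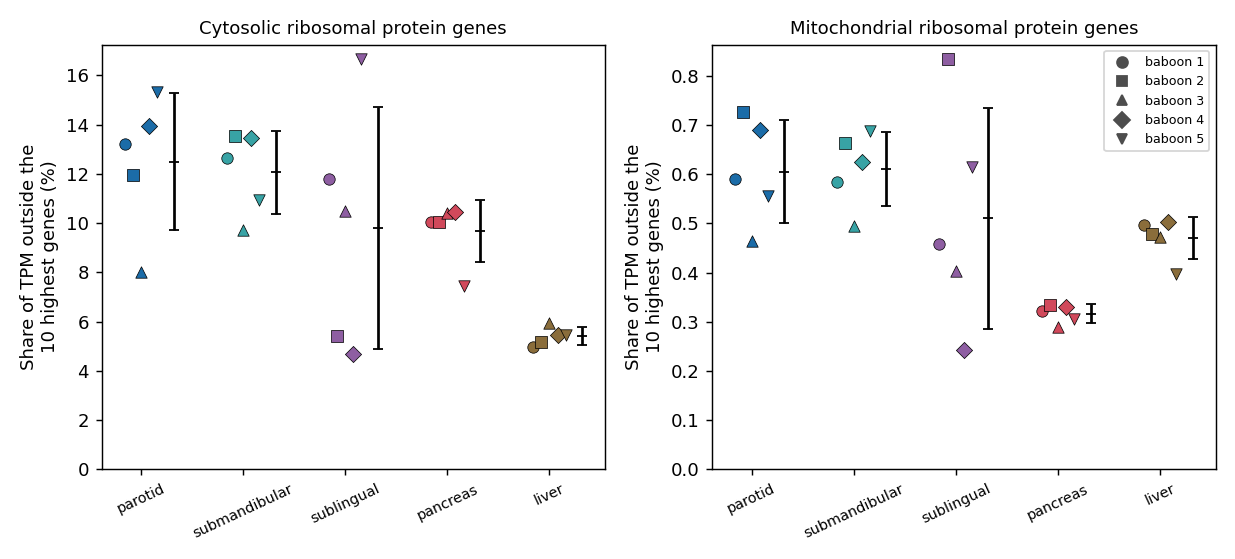
Share of the TPM outside the 10 highest genes (%) held by the cytosolic ribosomal protein genes (left) and by 74 mitochondrial ribosomal protein genes (right), by tissue, with 1 symbol per baboon and the mean ± SD as a black bar. On the left the pancreas libraries, from 7.44% to 10.5%, all sit above the liver libraries, from 4.97% to 5.95%, while on the right the liver libraries sit above the pancreas libraries.

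Levels within the family spanned more than an order of magnitude. By mean over the 25 libraries the most abundant members included RPS20 at 2324 TPM, RPL13A at 2294, RPS29 at 1852, RPL35 at 1463, RPLP1 at 1397, RPS24 at 1280 and RPS28 at 1210. RPLP1 is an acidic protein of the stalk on the large subunit that recruits elongation factors. The 4 least abundant were RPS25 at 50.3, RPL10A at 159, RPS13 at 222 and RPS7 at 235 TPM. The large-subunit members summed to between 1.34 and 1.69 times the small-subunit members in the 25 libraries, with a mean of 1.59 in pancreas and 1.45 in liver, so both subunits moved together with the family share. Mean levels were highest in the sublingual gland for 41 members, in pancreas for 17, in parotid for 10 and in liver for 1 (RPS2), and they were lowest in liver for 47. This order rested on the low-AQP5 libraries: without them the mean was highest in sublingual gland for 61 members, in pancreas for 7 and in submandibular gland for 1, and it was lowest in parotid for 67 and in liver for 1. The submandibular library of baboon 2, with a member share of 11.35%, was kept, so the glands were not treated alike in this count.

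RPS20 shows how the TPM of a member followed its library. It was at 908, 4879, 1328, 661 and 6763 TPM in the parotid libraries of baboons 1 to 5 and at 734, 5145, 1003, 833 and 1872 in the submandibular libraries. In pancreas it was at 1603, 2125, 1909, 1720 and 2114 TPM and in liver at 1519, 1739, 2392, 1877 and 2661. Its parotid values thus ran on both sides of pancreas and liver, while its share of the family sum moved far less, from 3.85% to 5.84% in parotid.

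The comparisons were tested with limma on log2(TPM + 1) with the animal as a block, over the 14991 genes whose mean reached 1 TPM in some tissue, and all 69 members entered. A call required a 2-fold difference or more and an adjusted p (Benjamini-Hochberg) below 0.05. The animals were the replicates, 5 per tissue. The 3 gland comparisons share the pancreas libraries and are set side by side only. Because most genes shifted together in these comparisons, each median of members is given beside the median of all genes tested, both as log2 fold changes.

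Against the pancreas, no member was called in parotid or submandibular gland, where 3.82% and 4.08% of all genes tested were called, nor in the sublingual gland, where 9.47% were. The unadjusted p was under 0.05 for 2, 6 and 0 of the 69, and for 18.5%, 12.2% and 31.0% of all genes. In parotid 63 members had a negative and 6 a positive log2 fold change, with a median of -0.38 against 0.45 over all genes. In submandibular gland all 69 were negative, with a median of -0.53 against 0.17. In the sublingual gland 37 were positive and 32 negative, with a median of 0.06 against 0.63. RPL29, a basic protein of the large subunit, had the most negative difference in parotid, -1.11 (SE 0.47, limma adjusted p = 0.212), and in sublingual gland, -0.87 (adjusted p = 0.196). In submandibular gland RPL26 (-1.28) and RPL29 (-1.26, adjusted p = 0.184) were the most negative. The most positive value was that of RPL39 in sublingual gland, at 1.12.

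These gland counts and signs depended on the scaling between libraries. With TMM scaling, which sets libraries level by the bulk of their genes, 18 members were called lower in parotid, 14 in submandibular and 15 in sublingual gland, where 5.74%, 5.9% and 7.02% of all genes were. With median-of-ratios scaling it was 24, 14 and 14, where 6.13%, 6.01% and 7.01% of all genes were, and no member was called higher under either. These scalings brought the median of all genes to between 0.01 and 0.11. Rescaling to the TPM outside the 10 highest genes turned the member median positive in parotid (0.37) and submandibular gland (0.34), with all genes at 0.98 and 0.80, and negative in sublingual gland (-0.15), with all genes at 0.50. RPL29 in the sublingual gland was then the single member called, lower, as were 3.82% of all genes. Under all 17 settings run, the member median lay below that of all genes, by 0.61 to 1.08 in parotid, 0.46 to 0.86 in submandibular gland and 0.16 to 0.85 in sublingual gland. Many of these settings could hardly change that order. Scaling moves members and all genes largely alike, and dropping the block or the fold minimum leaves both medians as they were. Without the 4 low-AQP5 libraries 7 members were called lower in parotid, among them RPL29 and RPLP0, and RPL29 alone in submandibular gland, where 3.21% and 3.88% of all genes were. In the sublingual gland 7 were then called higher, among them RPS29 and RPLP1, where 25.7% of all genes were. The submandibular library of baboon 2 was kept in that fit. Without baboon 2, RPL26, RPL29 and RPS18 were called lower in the submandibular gland, with 3.22% of all genes.

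Between pancreas and liver, 0 of 69 members were called with the values as deposited, against 17.5% of all genes tested, and 4 had an unadjusted p under 0.05, as did 28.9% of all genes. The direction was the opposite of most genes: 63 members were higher in pancreas and 6 lower, with a median log2 fold change of 0.53 against -0.44 over all genes. RPS4X, the X-linked copy of a small-subunit protein, was at 482, 446, 466, 446 and 176 TPM in the pancreas of baboons 1 to 5 and at 164, 167, 182, 149 and 85.2 TPM in the liver. It was higher in pancreas in 5 of 5 animals, and only the pancreas of the male, baboon 5, lay within the liver values. Its log2 fold change of 1.39 was the highest of the family (SE 0.51, limma adjusted p = 0.0634).

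Counted by overlap alone, all 5 pancreas libraries lay above all 5 liver libraries for 13 of 69 members, against 5.6% of all genes, and below them for 0, against 32.9%. Scaled to the TPM outside the 10 highest genes, the pancreas lay above for 42 of 69, against 8.04% of all genes. A member was higher in pancreas in 5 of 5 animals for 43 of 69 as deposited, against 9.19% of all genes. With TMM scaling 45 members were called higher in pancreas (7.65% of all genes), with median-of-ratios scaling 46 (7.89%), and when rescaled outside the 10 highest genes 22 (4.85%), with none lower. With only these 2 tissues in the fit 8 were called higher (5.08% of all genes), among them RPS4X, RPLP0 and RPL13A. Without the low-AQP5 gland libraries 4 were (3.73%), among them RPS4X, RPLP0 and RPL10. The member median lay above that of all genes under all 17 settings, by 0.74 to 1.25, an order that many of the settings could hardly change, as in the glands.

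RPL13A, also known as a translational silencer outside the ribosome, showed how 1 library can carry the spread. It was at 3147, 3043, 3432, 3321 and 791 TPM in the pancreas of baboons 1 to 5, and at 1192, 1450, 1562, 1149 and 733 TPM in the liver. The pancreas of baboon 5 lay below all livers but its own, and the other 4 lay far above them. That library also had the lowest ribosomal protein share of the pancreas, and EEF1A1, the elongation factor that brings tRNA to the ribosome and is itself a TOP messenger, was at 582 TPM there against 1623 to 3008 in the other 4. The same library had the highest sum of 3 islet hormone genes, 13518 TPM against 563 to 5562, the lowest sum of acinar genes, 63652 TPM, and the highest share of mitochondrial messenger RNA, 9.89% against 5.59% to 7.06%. Their part in its values was not tested. Without baboon 5 the log2 fold change of RPL13A was 1.28 instead of 1.05 (limma adjusted p = 0.128 and 0.227).

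A second fit put each library on the sum of its own 69 members, so that it asks which members took more or less of the family, whatever the rest of the library held. In it no member reached a 2-fold difference with an adjusted p under 0.05 in any of the 4 comparisons, while 23.7%, 16.6%, 19.7% and 40.7% of all genes tested did in parotid, submandibular and sublingual gland against pancreas and in pancreas against liver. Without the fold minimum, the limma adjusted p was under 0.05 for 7, 5, 14 and 13 members, against 37.3%, 23.2%, 26.9% and 53.0% of all genes. These 39 results came from 25 members, and those named below were chosen after their values were seen. All 39 differences were under 2-fold. Dividing by the member sum centres the members by construction. Their medians were 0.02, 0.02, -0.02 and 0.05, against 0.64, 0.50, 0.56 and -0.81 over all genes. Fewer passes among members than among all genes are thus partly built into this fit, here and below.

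The most repeated differences set the pancreas apart from the glands, in comparisons that share the pancreas libraries. RPS4X, RPL26 and RPL29 took a smaller part of the family in each of the 3 glands than in pancreas, by the adjusted p alone. Between pancreas and liver RPS4X passed as well, and RPL26 and RPL29 did not. When a fit held just the compared pair of tissues, none of the 3 passed in parotid or sublingual gland, and without the animal as a block RPS4X passed in no gland (adjusted p = 0.193, 0.184 and 0.0665). RPL29 made up 0.956%, 0.974%, 1.00%, 0.922% and 1.32% of the family in the pancreas of baboons 1 to 5. It made up 0.550% to 0.715% in parotid, 0.558% to 0.912% in submandibular gland and 0.439% to 0.674% in sublingual gland, and no gland library reached a pancreas library. The log2 fold change relative to the family was -0.71 in parotid (SE 0.20, limma adjusted p = 0.0123), -0.67 in submandibular gland (adjusted p = 0.023) and -0.96 in sublingual gland (adjusted p = 0.00283).

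RPL26, a large-subunit protein near the exit of the peptide tunnel, took 1.16% to 1.40% of the family in pancreas. In no gland library did it exceed 0.982%, and in liver it took 0.991% to 1.19%. Its log2 fold changes were -0.71, -0.69 and -0.78 in parotid, submandibular and sublingual gland (SE 0.17 each, limma adjusted p = 0.0056, 0.00946 and 0.00416). RPL22, which also acts in lymphocyte development, went the other way: 0.75% to 1.09% in pancreas, and 1.26% to 1.68% in parotid and 1.28% to 1.45% in submandibular gland. It rose by 0.60 in parotid (limma adjusted p = 0.0126) and 0.55 in submandibular gland (adjusted p = 0.0252), and its sublingual difference of 0.45 had an adjusted p of 0.0527.

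In the sublingual gland 5 members were higher and 9 lower than in pancreas, where 23.0% and 3.93% of all genes were. Higher were RPL23A (0.72), RPS21 (0.66), RPS27 (0.66), RPL38 (0.63), which affects translation of a subset of messengers in mouse embryos, and RPLP1 (0.55), all as log2 fold changes relative to the family. The lowest were RPL29, RPL13 (-0.84), RPL18 (-0.84) and RPL3 (-0.83), the last a protein close to the catalytic center. RPL3 was at 0.270% of the family in the sublingual library of baboon 2, and it did not pass without baboon 2 (-0.58) or without the low-AQP5 libraries (-0.46). When baboon 1, 2 or 4, or the low-AQP5 libraries, were left out, RPL29 passed the 2-fold minimum as well, with RPL3 beside it without baboon 1, and RPL39 passed it, higher, without baboon 3.

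Between pancreas and liver 8 members took a larger and 5 a smaller part of the family in pancreas, by the adjusted p alone, where 3.43% and 49.6% of all genes did. RPS4X was the highest: 0.862%, 0.745%, 0.779%, 0.745% and 0.443% of the family in the pancreas of baboons 1 to 5, and 0.460%, 0.420%, 0.405%, 0.377% and 0.243% in the liver. Within each animal the pancreas value was higher by a similar factor, and the male had the lowest value of both organs. The log2 fold change was 0.90, 1.87-fold (SE 0.17, limma adjusted p = 0.000178), and it was 0.91 without the male.

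RPLP0, the base of the ribosomal stalk, was next, at 1.16% to 1.8% of the family in pancreas and 0.813% to 1.15% in liver. Its log2 fold change was 0.63 (SE 0.19, limma adjusted p = 0.011), and without baboon 1 it did not pass (adjusted p = 0.0548). RPLP1 and RPLP2, its stalk partners, did not pass in this comparison. Lower in pancreas were RPL23 (-0.59), RPS20 (-0.57), RPL23A (-0.55), RPS16 (-0.503) and RPL30 (-0.47), so that the 2 most abundant members, RPL13A (0.56) and RPS20, differed in opposite directions. Of the 39 results relative to the family, RPS4X between pancreas and liver was the single one that kept its adjusted p under 0.05 under each of the 13 alternatives (from 1.1e-05 to 0.0073), and none of the 39 changed sign.

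Other members with a special role were steady or did not pass. RPSA, which also binds laminin at the cell surface, took 0.653% to 1.62% of the family over all libraries and passed in no comparison. RPL5 and RPL11, which enter the large subunit as a complex and restrain the p53 inhibitor MDM2, and RPS27A, made as a fusion with ubiquitin, did not pass in any either. Measured as the SD of the log2 share of the family over the 25 libraries, RPS13 was the steadiest member (0.15), followed by RPL27A and RPL17 (0.17 each). Far more variable were 4 members: RPL39 (0.82), RPL37 (2.26), RPL12 (2.28) and RPS25 (3.34).

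RPL12, RPL37 and RPS25 separated single animals in every tissue. RPL12, a large-subunit protein of the stalk base, was at 9.74, 11.8, 26.1, 10.001 and 10.9 TPM in parotid, submandibular gland, sublingual gland, pancreas and liver of baboon 1. In the other 4 animals it was never under 233 TPM and reached 1846. RPL37 was at 6.82 to 23.0 TPM in baboon 3 and at 155 to 1700 TPM in the rest.

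RPS25, a small-subunit protein used in cap-independent initiation, ran the other way, at 119, 121, 467, 243 and 276 TPM in the same 5 tissues of baboon 1. It did not exceed 7.21 TPM in the other animals and was listed at 0 in 6 of their libraries. The other 66 members did not separate an animal by this rule, at least 5-fold in every tissue with at least 10 TPM on the higher side. Over all 21287 genes, 6 did, and 3 of them were these members. The rest were RPS4Y1, on the Y chromosome, LOC101021633 in baboon 2 and LOC116272386 in baboon 5. The rule was set after the values were seen. Values of single ribosomal protein genes are uncertain where near-identical copies divide reads between them, and the part of that here was not tested.

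**Figure D3:**
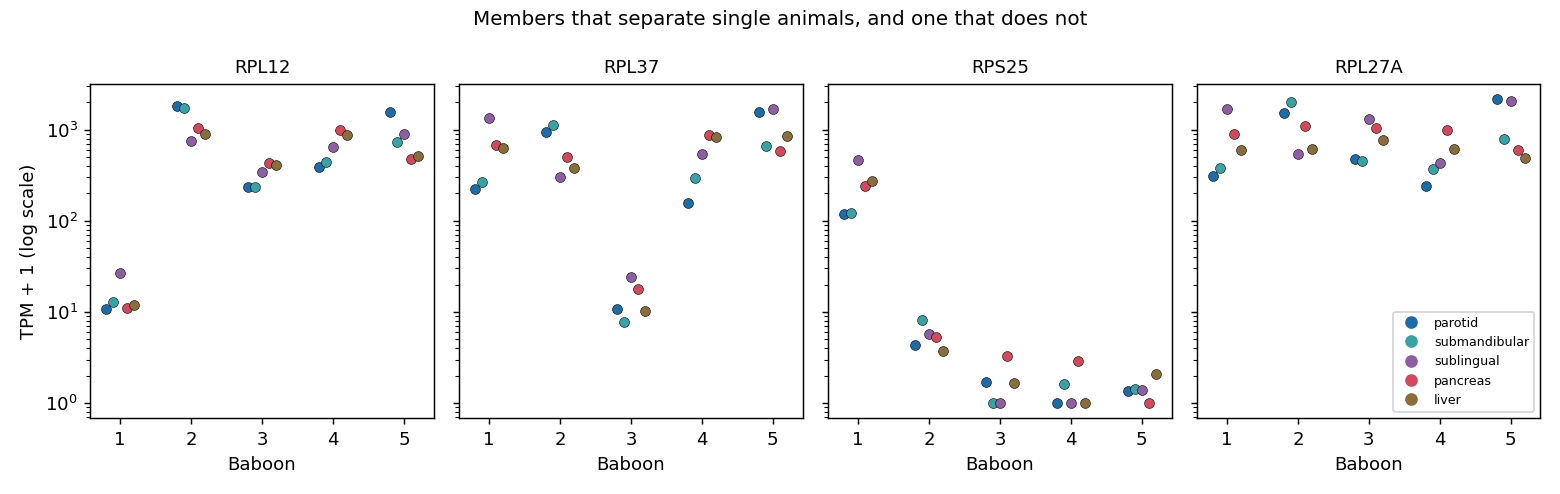
TPM + 1 on a log scale for RPL12, RPL37 and RPS25, and for RPL27A as a steady member, by baboon (horizontal axis) with tissues in colour. RPL12 is lowest in baboon 1, RPL37 in baboon 3, and RPS25 is above 100 TPM in baboon 1 alone, in all 5 tissues.

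RPL39, a short protein of the large subunit at the peptide tunnel, reached its highest levels in the sublingual gland, at 1415, 380, 194, 1637 and 738 TPM in baboons 1 to 5. In parotid, submandibular gland, pancreas and liver it ranged from 100 to 632 TPM. In baboon 4 it was 5.21% of the sublingual family sum, against 0.275% in baboon 3. The sublingual libraries of baboons 1 and 4 were those with KRT13, at 50365 and 12518 TPM, against 228 TPM at most in the other 3. Its difference from pancreas relative to the family, 1.03, did not pass (SE 0.45, limma adjusted p = 0.0878).

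Several ribosomal proteins have a second copy outside the naming rule. RPL3L, the form of RPL3 in striated muscle, reached 260 TPM in the sublingual library of baboon 2, against 2.81 TPM at most in the other 24 libraries. RPL3 was at 92.6 TPM there, its lowest value of all libraries, and RPL3L made up 73.7% of the pair. EEF1A2, the muscle and nerve form of EEF1A1, behaved alike in that library, at 1257 TPM and 78.3% of its pair. This was the library with ACTA1 at 33485 TPM, and the low RPL3 value and the muscle genes were not tested against each other.

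RPS4Y1 was at 419, 199, 228, 102 and 115 TPM in parotid, submandibular gland, sublingual gland, pancreas and liver of the male, while the female libraries held 6.61 TPM at most. It made up 36.7% of RPS4X and RPS4Y1 together in the pancreas and 57.5% in the liver. In each tissue the male had the lowest RPS4X share of the family. With 1 male, sex and animal cannot be told apart.

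RPL10L and RPL39L are retained copies known mainly from testis or other restricted uses, while RPL26L1, a further copy, was at 4.86 to 35.3 TPM over all 25 libraries. RPL10L was at 140 TPM in the sublingual library of baboon 3 and at 126 TPM in the submandibular library of baboon 2, with 19.2 TPM at most elsewhere. RPL39L was at 18.9, 17.4 and 16.4 TPM in the parotid library of baboon 5, the submandibular library of baboon 2 and the sublingual library of baboon 3, with 5.04 TPM at most in the others. RPL26L1 was the 1 copy called of 9 tested, where 17.5% of all genes were: with values as deposited it was at 4.86 to 6.97 TPM in pancreas and 15.9 to 25.3 TPM in liver. Its difference was -1.49 on the log2 scale with an SE of 0.39 (limma adjusted p = 0.00789), and it was lower in pancreas in 5 of 5 animals. RPL26 itself had means of 694 and 421 TPM in these organs, the opposite order.

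**Figure D4:**
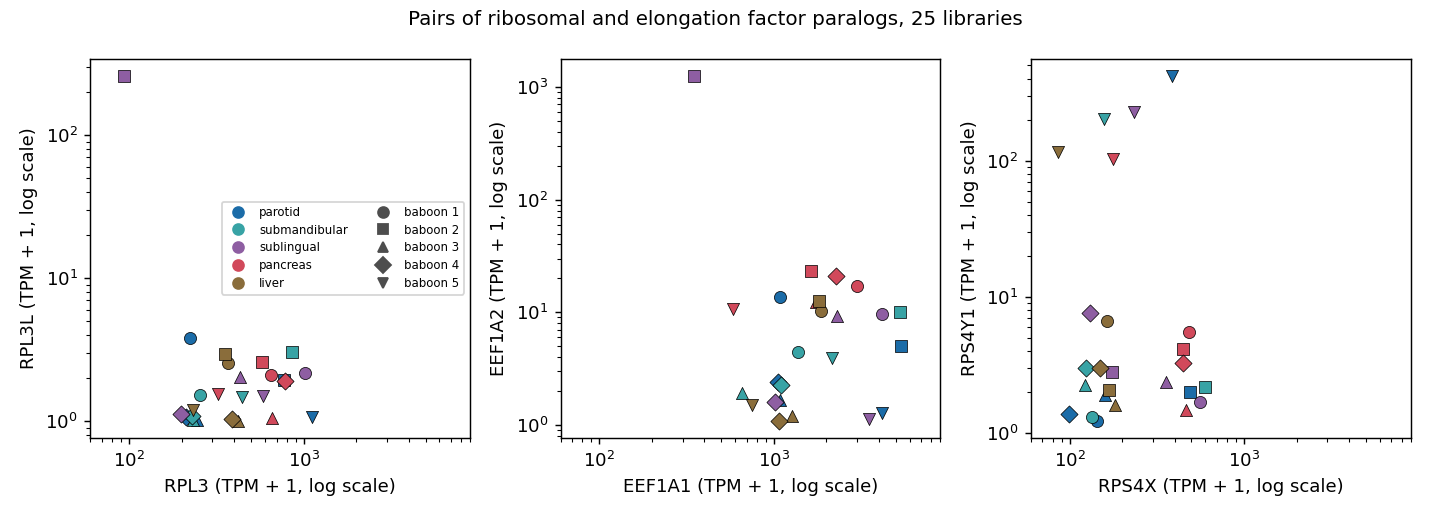
TPM + 1 of paralog pairs on log axes in the 25 libraries: RPL3L against RPL3, EEF1A2 against EEF1A1, and RPS4Y1 against RPS4X, coloured by tissue with 1 symbol per baboon. The sublingual library of baboon 2 stands alone in the first 2 panels, at 260 TPM of RPL3L and 1257 TPM of EEF1A2, and the 5 libraries of the male, above 100 TPM of RPS4Y1, in the last.

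Other genes of the translation machinery were tested in the same fit. Of 8 elongation factor genes none was called in any comparison with values as deposited, and 3 had an unadjusted p under 0.05 between pancreas and liver, as did 28.9% of all genes, with a median log2 fold change of 0.92 over the 8. Of 28 initiation factor genes tested, PABPC1, the poly(A)-binding protein, and EIF4E, the cap-binding protein, rose in sublingual gland against pancreas, by 2.21 and 2.16 (limma adjusted p = 0.0401 and 0.0385), a share close to the 6.97% of all genes called higher. The sublingual libraries held PABPC1 at 908, 32, 229, 1172 and 199 TPM, highest in the pair with KRT13. Without the low-AQP5 libraries, baboon 4 among them, the log2 difference was 2.67. PABPC1 did not pass under 6 of 15 alternatives and EIF4E under 5 of 15, which for both included leaving out baboon 1, 3, 4 or 5. EIF5 was lower in pancreas than in liver (-1.5 on the log2 scale, limma adjusted p = 0.0347), where 14.6% of all genes were called lower, and it did not pass under 6 of 15 alternatives. Of 36 ribosome biogenesis genes, 6 other TOP messengers and 7 regulators of TOP messengers, none was called with values as deposited, against 3.82%, 4.08%, 9.47% and 17.5% of all genes in the 4 comparisons. Relative to the family and between pancreas and liver, 20 of the 36 biogenesis genes, 8 of the 28 initiation factors, 2 of the 8 elongation factors, 1 of the 7 regulators and none of the other TOP messengers were called lower, where 38% of all genes were.

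Mitochondrial ribosomal proteins, which serve the separate ribosomes of mitochondria, ran opposite to the cytosolic family between pancreas and liver. Of 74 such genes 20 were lower in pancreas and 0 higher with values as deposited, where 14.6% of all genes tested were called lower, and their median log2 fold change was -1.001, against -0.44 over all genes. Relative to the cytosolic family 62 of the 74 were lower in pancreas, against 38% of all genes, and 16, 18 and 17 were higher in parotid, submandibular and sublingual gland than in pancreas, against 20.9%, 14.0% and 16.5%. MRPL14 was at 24.4, 20.4, 28.6, 24.8 and 24.2 TPM in pancreas and at 150, 159, 157, 181 and 67.9 TPM in liver, which is -2.43 on the log2 scale with an SE of 0.55 (limma adjusted p = 0.00233). The groups did not overlap. MRPL55 was at -1.29 (adjusted p = 0.023) and did not pass under 5 of 15 alternatives. In sublingual gland against pancreas 6 of 74 were called higher, among them MRPL1 (1.35) and MRPL13 (2.04), where 6.97% of all genes were, and in submandibular gland MRPL23 alone was called, lower (-1.76, adjusted p = 0.0243).

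The summed cytosolic family exceeded the mitochondrial one 31.1, 29.9, 36.0, 31.7 and 24.4 times in the pancreas of baboons 1 to 5, and 9.98, 10.8, 12.6, 10.9 and 13.8 times in the liver. This ratio does not depend on how libraries are scaled, and no pancreas library reached down to a liver library. Parotid, at 16.4 to 27.6 times, lay above the liver and overlapped the pancreas in the library of baboon 5, and submandibular gland, at 15.9 to 21.6 times, overlapped neither. Without the low-AQP5 libraries, that of baboon 5 among them, parotid ran from 17.2 to 22.4 times and did not reach the pancreas. The sublingual gland ranged from 6.48 times in the library of baboon 2 with ACTA1 and CKM to 27.1 times in baboon 5.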

How the data were processed

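Bulk RNA was measured in 25 libraries, 5 tissues of 5 baboons, and grouped by the tissue and animal in the labels. The authors deposited TPM per gene, abundances from kallisto as the name of the table says. Version, index, genome build and annotation are not given in the sources used here, so no coordinates and no sequences are printed. Per the submitters' processing notes FastQC, MultiQC, cutadapt, HISAT2, SAMtools, featureCounts and DESeq2 were also used, with roles not given. Libraries summed to 999999.45 to 1000000.6 TPM. TPM keeps no depth, so no counting error is available, and its scale ties every gene to the highest ones.

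From these values shares and ratios were computed with Python 3.11.15, pandas 2.3.3 and numpy 2.4.6, and figures drawn with matplotlib 3.10.9. Comparisons used limma 3.58.1 in R 4.3.3 on log2(TPM + 1), which understates changes of low genes, with tissue and animal as terms over all libraries and genes whose mean reached 1 TPM in some tissue (14991, or 14907 on the family scale). Calls needed a Benjamini-Hochberg adjusted p under 0.05 and a log2 fold change of at least 1. The script was tested on simulated data. The animals pair the tissues by the labels. Deviations from the tissue means correlated within an animal by 0.10, 0.09, -0.05 and 0.36 in the 4 comparisons, in the order of the text, and between animals by -0.02, -0.02, 0.01 and -0.08.

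Named genes were the 8 highest and 4 lowest members, called genes at the extremes, and a list of members, paralogs and translation factors. Others were named after their values were seen, and some genes that the rule gives are not reported here. The members and lists were chosen with earlier results of these data known. TMM and median-of-ratios factors were computed from the TPM values.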

Additional observations from a re-analysis of the deposited data

Results flagged for a closer look

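Groups of 5 libraries were screened for a single library far from the rest, over 70 groups of named values. Here 19 groups were marked, while chance marks about 1 in 20 groups of normally distributed values. That rate does not apply to this set, since some genes were named after their values were seen and 10 of the 19 marks are those of RPS25 and RPS4Y1, each apart in 1 animal in all 5 tissues. No explanation of these values was tested.

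The ribosomal protein share was 11.35% in the submandibular library of baboon 2, against 2.20% to 4.6% in the other 4, and RPS20 and RPS4X were apart in the same library at 5145 and 599 TPM. RPL3L was at 2.03 TPM there, against no more than 0.531 TPM. In the pancreas of baboon 5 the share was 3.97%, against 5.59% to 5.99%, and the share of the TPM outside the 10 highest genes 7.44%, against 10.02% to 10.5%. RPL13A (791 TPM) and RPS4X (176 TPM) were the members apart in that library.

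RPS25 was apart in baboon 1 in all 5 tissues, at 119 TPM in parotid, 121 in submandibular gland, 467 in sublingual gland, 243 in pancreas and 276 in liver. RPS4Y1 was apart in the male in all 5, at 419, 199, 228, 102 and 115 TPM in the same order. RPL3L was at 260 TPM in the sublingual library of baboon 2, against no more than 1.16 TPM in the others of that gland.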

How the results depend on the processing

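With values as deposited 0 members were called in each comparison, and no replicate block, another pseudocount or another filter on low values left all 4 counts at 0. By the adjusted p alone, 9 of the 39 results relative to the family did not pass without the block: RPS4X in each gland, RPL23A in submandibular gland, sublingual gland and pancreas against liver, RPLP0 in parotid, RPS27 in sublingual gland and RPL13A in pancreas against liver. MRPL1 in sublingual gland (1.35) did not pass either. In the order parotid, submandibular, sublingual gland against pancreas and pancreas against liver, TMM scaling called 18, 14, 15 and 45, median-of-ratios scaling 24, 14, 14 and 46, and leaving out the low-AQP5 libraries, chosen after seeing the data, 7, 1, 7 and 4. Rescaling without the 10 highest genes called 1 in sublingual gland and 22 between pancreas and liver, and a fit of only 2 tissues 8 between pancreas and liver. Leaving out each baboon gave 0 to 3 in submandibular gland. Relative to the family, the adjusted p alone gave 7, 5, 14 and 13, leaving out each baboon 0 to 2 in sublingual gland, and leaving out the low-AQP5 libraries 1 there. The share outside the highest genes was 9.499% in submandibular gland, 7.86% in pancreas and 4.77% in liver with 5 genes set aside, and 20.3% in pancreas and 8.41% in liver with 50. Any members among the genes set aside were left out of it too. The causes were not tested. No called single-gene value reversed under these alternatives: 484 of the single-gene values kept their side of the threshold, 189 lost it and 14 gained it. The gene table holds no descriptions, so unnamed ribosomal LOC genes were not added. The unknown depth limits all low values, those of RPS25 and the paralogs most.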
